A study of Drosophila melanogaster with 10 samples.

Results

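The Polycomb group transcripts of Drosophila S2 cells were followed after RNA interference (RNAi) against JIL-1, a chromatin-bound kinase of histone H3. Of 10 Polycomb group genes, 7 had a probe set that the platform annotation gave to that gene alone, with 1 probe set each, out of 18952 probe sets on the array. These were Pc (probe set 1636721_at, chromosome arm 3L), Psc (1631095_at, 2R), Sce (1627898_at, 3R), E(z) (1626696_at, 3L), esc (1623519_at, 2L), Su(z)12 (1623952_a_at, 3L) and Sfmbt (1636691_a_at, 2L), with arms from the gene table of assembly Release 6. No probe set carried the symbol of ph-p, Su(z)2 or pho alone, and these 3 genes were not analysed here. S2 cells are an established embryonic line with features of macrophage-like blood cells.

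All 10 samples were total RNA of S2 cells taken on day 7 after treatment with 10 µg of double-stranded RNA (dsRNA), in 2 labelled batches. For every sample the labels give a 1 h incubation and division of the cells on day 3. In batch A, 3 control samples received dsRNA against GST and 2 samples received dsRNA labelled JIl-1 5prime. In batch B, 2 control samples received dsRNA against EGFP and 3 samples received dsRNA labelled JIl-1 3prime. The control cells thus also received dsRNA. The series calls the samples biological replicates, and the labels do not say what else set the batches apart. The cells were a single line, and each JIL-1 dsRNA and each control dsRNA was used in only 1 batch, so dsRNA and batch cannot be told apart.

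Polycomb group proteins keep developmental genes silent once their early activators are gone. Polycomb repressive complex PRC2, with the subunits E(z), esc and Su(z)12, methylates histone H3. The complex PRC1, with Pc, Psc and Sce, binds that mark, compacts chromatin and ubiquitinates histone H2A. PhoRC, which pairs Sfmbt with the DNA-binding protein pho, sits at the Polycomb response elements to which the other complexes are drawn. No sequences are printed, since none were supplied with the data.

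Values are log2 expression values, and a change is a log2 difference between JIL-1 RNAi and control samples. Each change was fitted in limma over all 10 samples, 5 in each RNAi group, with batch in the model, and is given with its standard error (SE), its 95% interval where shown, and limma's p adjusted by Benjamini-Hochberg over all 6721 genes and unnamed probe sets with a mean above 4. The threshold was an adjusted p of 0.05. Array medians over these ran from 9.22 to 9.42. Values of different probe sets have no common scale, so levels are compared only within a gene. In these bulk samples fewer cells of a type and less RNA per cell cannot be told apart.

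The knockdown and the cell type were checked first. JIL-1 lay at 5.79, 5.95 and 5.66 in the batch A controls and at 4.35 in both JIL-1 RNAi samples. In batch B it lay at 7.53 and 7.34 in the controls and at 5.66, 5.78 and 5.84 after JIL-1 RNAi. The groups did not overlap within either batch, and the change was -1.56 (SE 0.08, adjusted p = 5.32e-07). All 10 hemocyte markers were above 4 on average. After JIL-1 RNAi 5 of them fell, with NimC1 lowest at -2.14, and 1 rose, while 14.9% of all tested fell and 20.8% rose. The log2 of their summed level was 15.9 to 16.0 in control and 15.7 in JIL-1 RNAi samples of batch A, and 15.5 in control and 15.5 to 15.6 in JIL-1 RNAi samples of batch B. Of the neuron, muscle and fat body lists, elav, brp, bt and apolpp were above 4 on average and nSyb, Mlc2, Fbp1 and Lsp2 lay near the lower end of the scale. The ovary markers osk, tj and vas and the testis markers aly and can lay near the lower end in every sample. The testis marker bam lay higher after JIL-1 RNAi, with values up to 5.43, so the summed testis list was 3.81 to 3.84 in control and 5.44 to 5.71 in JIL-1 RNAi samples of batch A, and 3.79 in control and 4.37 to 5.05 in JIL-1 RNAi samples of batch B. The part of these markers in the results below was not tested.

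The first question was whether the Polycomb genes themselves changed with the loss of JIL-1 transcript. The subunits E(z) and Su(z)12 of PRC2 and Sfmbt of PhoRC rose, by 1.15- to 1.20-fold. No PRC1 subunit passed the threshold, and no member fell. Of the 7 members 3 rose, while 35.7% of all 6721 tested changed, 20.8% rising and 14.9% falling. The median change was 0.20 among the 7 members and 0.047 over all tested. All 7 fitted changes were above 0, as were 58.8% of all tested.

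Sfmbt, which binds methylated histone tails and links PhoRC to PRC1, had the smallest p among the members. It lay at 9.59, 9.46 and 9.69 in the batch A controls and at 9.76 and 10.00 in the JIL-1 RNAi samples of that batch. In batch B both controls lay at 10.37 and the JIL-1 RNAi samples at 10.56, 10.58 and 10.67. Every JIL-1 RNAi sample lay above every control of its batch. The change was 0.27 (SE 0.06, 95% interval 0.12 to 0.41, adjusted p = 0.0103), a 1.20-fold higher level. Within batch A it was 0.30 (adjusted p = 0.0379) and within batch B 0.23 (adjusted p = 0.120). Sfmbt was the only member to pass within batch A, where 28.2% of all tested did, and no member passed within batch B, where 17.6% did.

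E(z), the histone methyltransferase of PRC2, showed the same order within each batch. Its values were 9.13, 9.05 and 9.005 in the batch A controls and 9.26 and 9.35 after JIL-1 RNAi. In batch B they were 9.34 and 9.22 in the controls and 9.42, 9.40 and 9.59 after JIL-1 RNAi. The groups did not overlap in either batch. E(z) rose by 0.21 (SE 0.06, 95% interval 0.09 to 0.34, adjusted p = 0.0171), 1.16-fold, the batch A estimate being 0.24 and that of batch B 0.19. Groups apart in both batches with JIL-1 RNAi higher, as for E(z) and Sfmbt, were found in 18.2% of all tested.

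Su(z)12, the zinc finger subunit that PRC2 needs for its activity, lay at 9.67, 9.68 and 9.82 in the batch A controls and at 9.81 and 10.06 after JIL-1 RNAi. In batch B the controls lay at 10.53 and 10.63 and the JIL-1 RNAi samples at 10.75, 10.75 and 10.82. The groups overlapped in batch A, where control replicate 3 was above JIL-1 RNAi replicate 1, and were apart in batch B. The rise was 0.20 (SE 0.06, 95% interval 0.07 to 0.34, adjusted p = 0.0281), 1.15-fold, the batch A estimate being 0.21 and that of batch B 0.19. In exact permutation tests over the 100 regroupings within batches (two-sided), run for the 7 members and not adjusted, p was 0.01 for Sfmbt and E(z), the smallest they can give, and 0.02 for Su(z)12.

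These rises rested on small differences. Without JIL-1 RNAi replicate 2, the higher batch A sample for all of Sfmbt, E(z) and Su(z)12, only Sfmbt passed the threshold (0.21, adjusted p = 0.0356), while the value was 0.19 for E(z) (adjusted p = 0.0586) and 0.15 for Su(z)12 (adjusted p = 0.0925). Without control replicate 5 E(z) did not pass either (adjusted p = 0.0534). Su(z)12 also missed the threshold without control replicate 1 (adjusted p = 0.0530), control replicate 4 (0.0795) or JIL-1 RNAi replicate 5 (0.0502), with batch as a random block (0.0768) and with no filter on the mean level (0.0729), settings under which Sfmbt passed. The difference between the 3' and 5' signals of Act5C, a measure of how far labelled RNA reaches towards the start of the transcript, was 0.74 to 0.96 in control and 0.77 to 0.84 in JIL-1 RNAi samples of batch A, and 2.77 to 3.10 in control and 2.28 to 2.44 in JIL-1 RNAi samples of batch B. The same measure of GAPDH was 0.38 to 0.56 in control and 0.59 to 0.74 in JIL-1 RNAi samples of batch A, where the groups did not overlap, and 1.23 to 1.54 in control and 1.27 to 1.43 in JIL-1 RNAi samples of batch B, where they did. The part of the GAPDH measure in the rises was not tested. With the Act5C measure as a covariate, an alternative chosen after the data were seen, none of the 3 passed. The changes were then 0.25 for Sfmbt (adjusted p = 0.0766), 0.20 for E(z) (0.102) and 0.20 for Su(z)12 (0.120). Without the covariate they were 0.27, 0.21 and 0.20.

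**Figure D1:**
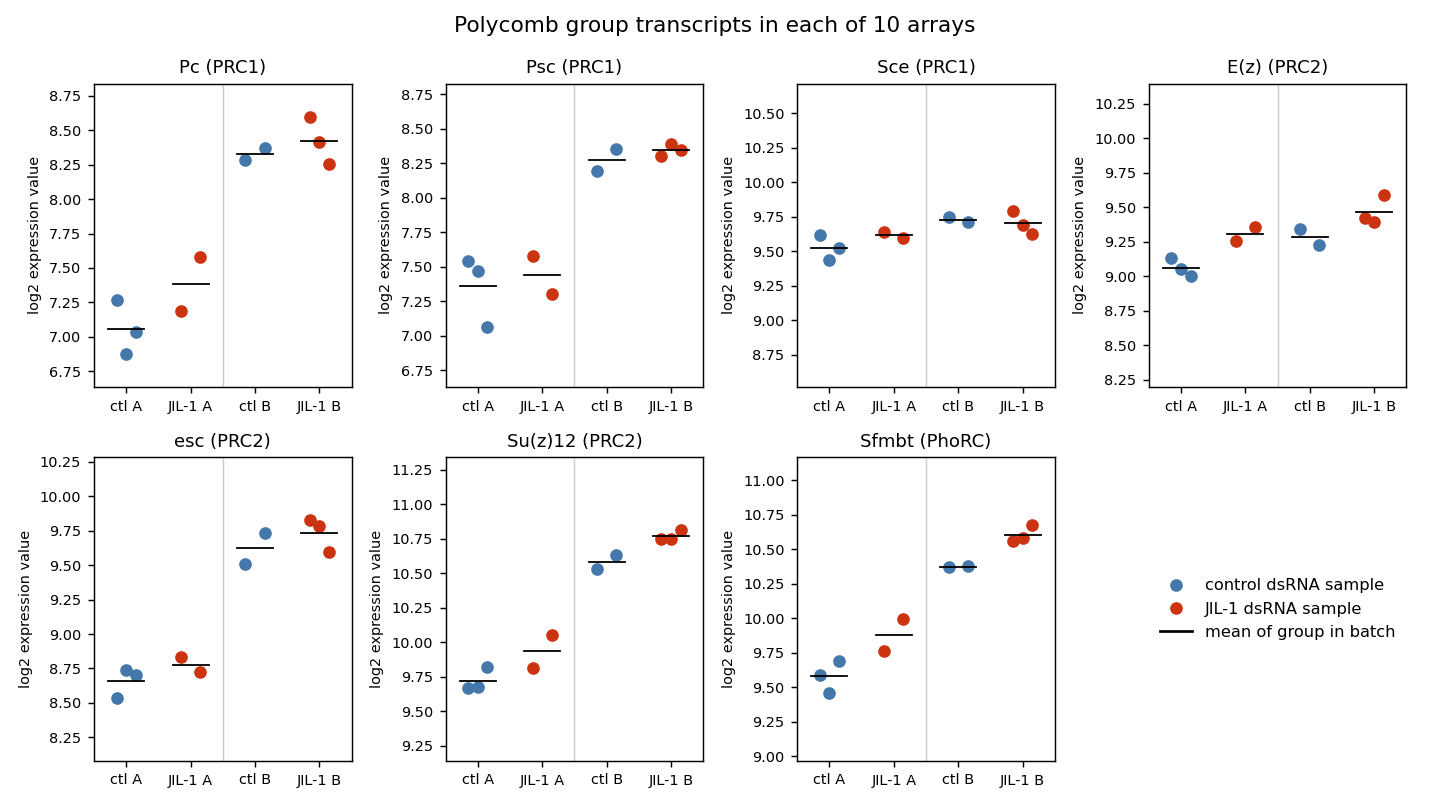
Log2 expression value (vertical axis, each panel spanning the same range) of the 7 Polycomb group transcripts in each of the 10 samples, by RNAi group and batch, with the group mean as a line. For Pc, Psc, esc, Su(z)12 and Sfmbt all batch B samples lie above all batch A samples, and for E(z) and Sfmbt every JIL-1 RNAi sample lies above the controls of its batch.

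The PRC2 subunit esc, a WD40 protein that recognises the methylated histone, lay at 8.54, 8.74 and 8.70 in the batch A controls and at 8.83 and 8.72 after JIL-1 RNAi. In batch B the controls lay at 9.51 and 9.73 and the JIL-1 RNAi samples at 9.83, 9.78 and 9.59. The groups overlapped in both batches, and the change of 0.12 did not pass the threshold (95% interval -0.04 to 0.27, adjusted p = 0.227).

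Pc, the chromodomain subunit that reads the methyl mark, had the widest interval of the 7 members. Its values were 7.26, 6.88 and 7.04 in the batch A controls and 7.19 and 7.58 after JIL-1 RNAi, and in batch B 8.28 and 8.37 in the controls and 8.60, 8.42 and 8.25 after JIL-1 RNAi. The groups overlapped in both batches. The change was 0.21, as large as that of E(z), but with a 95% interval of -0.03 to 0.45 (adjusted p = 0.155).

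Psc, a RING-finger protein that compacts nucleosomes, lay at 7.54, 7.47 and 7.07 in the batch A controls and at 7.58 and 7.31 after JIL-1 RNAi. In batch B it lay at 8.19 and 8.35 in the controls and at 8.30, 8.39 and 8.34 after JIL-1 RNAi. The groups overlapped, and the change was 0.078 (95% interval -0.13 to 0.29, adjusted p = 0.550).

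Sce, the ubiquitin ligase of PRC1, had the smallest change. It lay at 9.62, 9.44 and 9.52 in the batch A controls and at 9.64 and 9.60 after JIL-1 RNAi, and in batch B at 9.75 and 9.71 in the controls and 9.79, 9.69 and 9.62 after JIL-1 RNAi. The change was 0.033 (95% interval -0.09 to 0.16, adjusted p = 0.680), and it was the only member whose fitted change differed in sign between the batches, at 0.093 in batch A and -0.028 in batch B. The other 6 kept 1 sign, as did 74.9% of all tested. The intervals of the 4 members that did not pass allow rises of up to 1.37-fold for Pc, 1.22-fold for Psc, 1.21-fold for esc and 1.12-fold for Sce.

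The difference between the changes in the 2 batches, each with its own JIL-1 dsRNA, was tested directly. For none of the 7 members did it pass the threshold, and none had an unadjusted p under 0.05, against 1.38% of all tested by adjusted p and 14.8% by unadjusted p. The change in batch B minus that in batch A ran from -0.23 for Pc (95% interval -0.71 to 0.25, adjusted p = 0.652) to -0.0061 for esc (95% interval -0.34 to 0.33, adjusted p = 0.992). With 2 or 3 samples in each group of a batch these intervals are wider than the rises themselves.

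**Figure D2:**
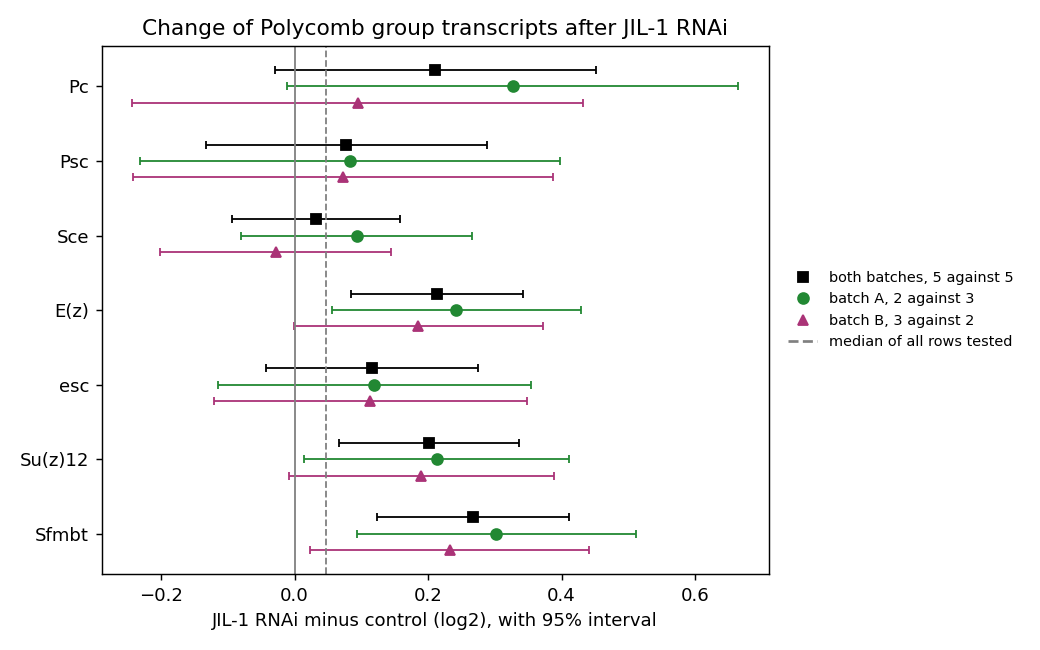
Change after JIL-1 RNAi (log2, horizontal axis) of the 7 Polycomb group transcripts with 95% intervals, for both batches together (squares), batch A (circles) and batch B (triangles). The intervals of E(z), Su(z)12 and Sfmbt over both batches lie above 0, and those of Pc, Psc, Sce and esc include it.

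Between the batch controls Pc, Psc, esc, Su(z)12 and Sfmbt differed by more than they did after JIL-1 RNAi, with intervals that did not overlap. For Sce the difference between the controls was 0.21 (interval 0.03 to 0.38). Its change after JIL-1 RNAi was 0.033 (interval -0.09 to 0.16). These intervals overlapped and the sizes were not tested against each other, so which is larger for Sce is not clear. For E(z) both differences were close to 0.2. In the control samples 5 of the 7, all but E(z) and Sce, were between 0.79 and 1.27 higher in batch B than in batch A. Pc was 2.41-fold higher (difference 1.27, SE 0.15, adjusted p = 9.50e-05), esc 1.95-fold (0.96, SE 0.10, adjusted p = 5.66e-05), Psc 1.89-fold (0.92, SE 0.14, adjusted p = 0.000407), Su(z)12 1.81-fold (0.86, SE 0.09, adjusted p = 4.20e-05) and Sfmbt 1.73-fold (0.79, SE 0.09, adjusted p = 8.87e-05). For each of these 5 genes all 5 batch B samples lay above all 5 batch A samples. How many of all tested were apart in this way was not counted, so the separation is a description only. E(z) and Sce differed by only 0.22 (adjusted p = 0.0414) and 0.21 (adjusted p = 0.0413). All 7 members were higher in the batch B controls, where 62.4% of all tested differed, 37.7% higher and 24.7% lower. E(z) did not pass in 9 of the 18 alternative fits of this difference, and Sce did not in 10. Both missed the threshold without control replicate 2, 3, 4 or 5 or JIL-1 RNAi replicate 4, among others. The 5 members above passed in all 18.

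The JIL-1 RNAi samples of the 2 batches showed a similar order. They share no sample with the controls but share their batches, so this is not separate support. Batch B was higher than batch A by 1.03 in Pc (adjusted p = 0.00033), 0.96 in esc, 0.91 in Psc, 0.84 in Su(z)12 and 0.72 in Sfmbt (adjusted p = 0.00016). The differences of 0.16 in E(z) (adjusted p = 0.115) and 0.083 in Sce (adjusted p = 0.371) did not pass. In this comparison 5 of 7 members were higher in batch B, against 32.3% of all tested, with 27.8% lower. Ordered by level, Pc, Psc, esc, Su(z)12 and Sfmbt thus ran from batch A to batch B, with the RNAi groups inside each batch apart in both batches for Sfmbt only. For E(z) the order was control A, then control B and JIL-1 RNAi A, whose means of 9.28 and 9.31 differed by less than the spread of their samples, then JIL-1 RNAi B. For Sce the batch B samples lay above the batch A controls, while the JIL-1 RNAi samples of the batches overlapped.

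Technical measures differed between the batches in the same samples. The 3' minus 5' signal of Act5C ranged over 0.74 to 0.96 in batch A, against 2.28 to 3.10 in batch B. The 12 array control probe sets for Bacillus genes, which are added to a labelling reaction, lay between 2.20 and 3.03 in batch A and between 6.02 and 12.6 in batch B. The marker lists of other cell types differed too. The log2 summed level of the neuron list was 6.51 to 7.02 in the batch A controls and 8.43 to 8.63 in the batch B controls, that of the muscle list 9.28 to 9.32 and 8.10 to 8.30, and that of the fat body list 4.84 to 5.03 and 5.96 to 6.22. Among the hemocyte markers the batch B minus batch A difference between controls was -4.67 for NimC1, -1.34 for Sr-CI, -0.95 for He, -0.86 for Pxn and -0.50 for eater, and 0.79 for srp, 0.38 for crq and 0.26 for ush. The part of RNA quality, labelling, dsRNA and cell stock in the batch difference cannot be told apart. The difference also depends on scaling. When arrays were set to a common median, the median difference of all tested went from 0.10 to -0.054, and of the differences called between controls 42.9% were higher in batch B instead of 60.4%. With quantile normalization the median was -0.017 and the share 47.9%. Under both, E(z) and Sce no longer passed (0.066 and 0.051 with a common median), while Pc, Psc, esc, Su(z)12 and Sfmbt did, with differences of 0.64 (Sfmbt) to 1.11 (Pc) with a common median.

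**Figure D3:**
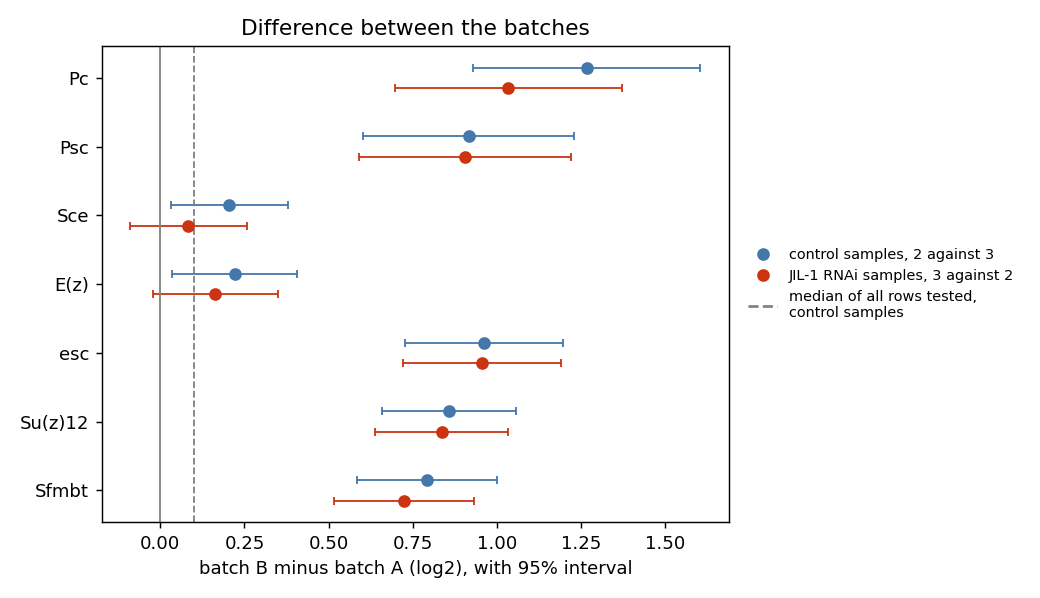
Level in batch B minus level in batch A (log2, horizontal axis) of the 7 Polycomb group transcripts with 95% intervals, in the control samples and in the JIL-1 RNAi samples. Pc, Psc, esc, Su(z)12 and Sfmbt lie between 0.72 and 1.27 in both, and E(z) and Sce at or below 0.22.

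The other genes of the Polycomb system were taken from a list of 25 complex partners, paralogs and DNA-binding factors. Of these 20 had a probe set of their own and 17 were tested. After JIL-1 RNAi 2 of the 17 rose, none fell, and the median was 0.018, near the 0.047 of all tested. Over all tested 20.8% rose, and the difference between these shares was not tested.

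The larger rise was that of psq, a BTB-domain protein that binds GAGA motifs at Polycomb response elements. It lay at 8.67, 9.05 and 8.96 in the batch A controls and at 9.26 and 9.46 after JIL-1 RNAi, and in batch B at 9.48 and 9.55 in the controls and at 10.04, 10.05 and 10.39 after JIL-1 RNAi. The groups were apart in both batches. The change was 0.56 (SE 0.10, adjusted p = 0.0019), 1.47-fold, the batch A estimate being 0.47 and that of batch B 0.64. Its probe set is of a type that can match transcripts of more than 1 gene.

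RYBP, which joins Sce in variant PRC1 complexes, lay at 7.49, 7.75 and 7.98 in the batch A controls and at 8.09 and 8.31 after JIL-1 RNAi. In batch B it lay at 7.72 and 7.91 in the controls and at 8.05, 8.10 and 8.17 after JIL-1 RNAi. It rose by 0.37 (SE 0.10, adjusted p = 0.0132), 1.30-fold, and the groups were apart in both batches. Unlike the 5 members above, RYBP did not pass the threshold between the batch controls (0.072, adjusted p = 0.665).

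Among the 15 that did not pass, the fitted changes ran from -0.25 for phol, the paralog of pho (adjusted p = 0.0915), to 0.31 for escl, the paralog of esc (adjusted p = 0.205). Scm, a partner of PRC1 and of Sfmbt, had a fitted change of 0.14 (95% interval 0.0046 to 0.27, adjusted p = 0.0990). Caf1-55, the histone-binding subunit of PRC2, had a fitted change of 0.018, and the GAGA factor Trl of -0.015. Between the batch controls 10 of the 17 were higher in batch B and 2 lower, against 37.7% and 24.7% of all tested, a balance that turned with scaling as given above. Jarid2, a PRC2 cofactor named here after its values were seen, differed most among them, by 1.52 (adjusted p = 4.19e-06). Of the 3 not tested, grh and jing lay under 4 in every sample, and corto lay at 2.53 to 3.01 in batch A and at 4.11 to 4.70 in batch B.

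**Figure D4:**
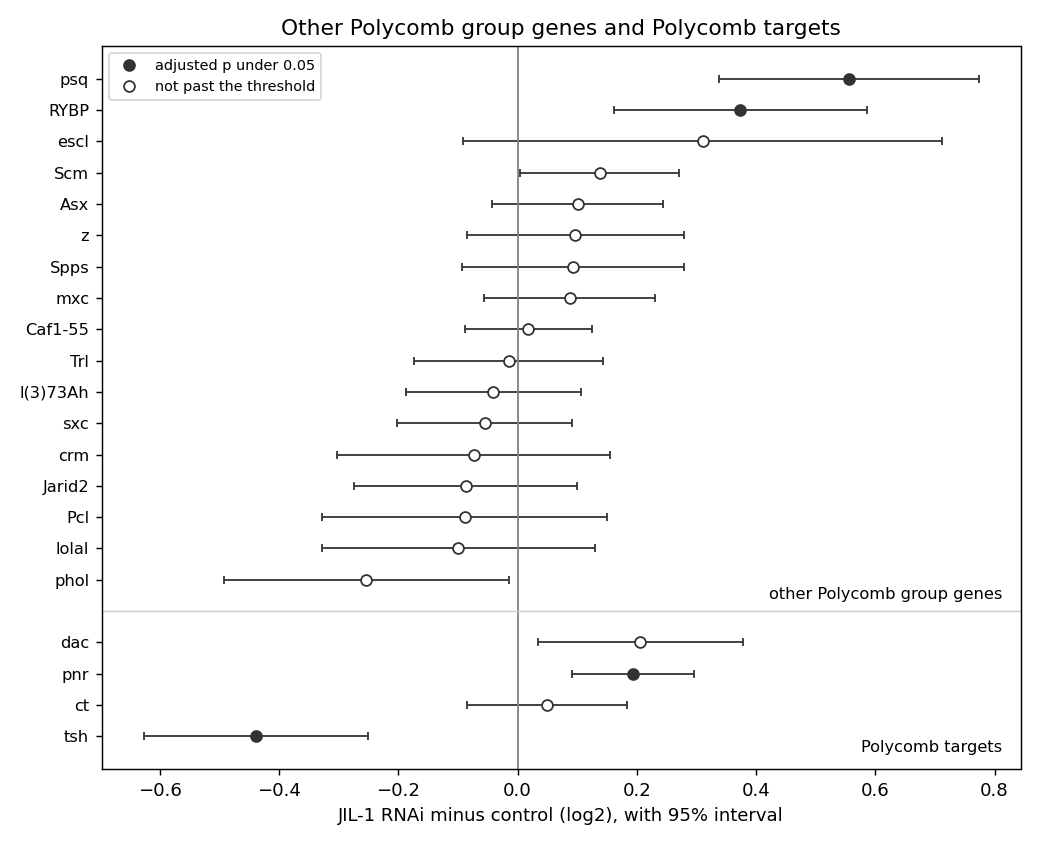
Change after JIL-1 RNAi (log2, horizontal axis) with 95% intervals of the 17 tested other Polycomb group genes and the 4 tested Polycomb targets, with filled points for those past the threshold. The filled points are psq, RYBP, pnr and tsh, and tsh alone of these lies below 0.

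The genes that Polycomb complexes silence were almost all near the lower end of the scale. Of 41 textbook targets, among them the Hox genes Antp, Scr, Dfd and pb and the segment genes en, inv and eve, 34 had a probe set of their own. In 30 of the 34 the brightest probe set was under 4 in every sample, and 19 of these lay within 0.01 of the lowest value on every array. By these probe sets none of the 30 reached 4 in a JIL-1 RNAi sample. Falls, and smaller changes under 4, cannot be read for them. The tested targets were pnr, tsh, ct and dac.

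Of these 4, 1 rose and 1 fell, against 20.8% and 14.9% of all tested. tsh, a zinc finger protein of the trunk segments, fell by 0.44 (SE 0.08, adjusted p = 0.00318). It lay at 10.14, 10.05 and 10.20 in the batch A controls and at 9.77 and 10.00 after JIL-1 RNAi, and in batch B at 11.13 and 11.18 in the controls and at 10.46, 10.54 and 10.58 after JIL-1 RNAi. The groups were apart in both batches, as with JIL-1 RNAi lower for 13.4% of all tested, with changes of -0.24 in batch A and -0.63 in batch B that were not shown to differ (adjusted p = 0.181). pnr, a GATA factor, rose by 0.19 (SE 0.05, adjusted p = 0.00938), from 11.59, 11.67 and 11.65 to 11.85 and 11.77 in batch A and from 11.83 in both controls to 12.02, 11.999 and 12.10 in batch B. With the Act5C covariate neither passed, at -0.33 for tsh (adjusted p = 0.05004) and 0.18 for pnr (adjusted p = 0.0652).

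ct and dac, described here after their values were seen, did not pass the threshold after JIL-1 RNAi over both batches but differed widely between the batches. dac, a nuclear factor of eye and leg development, lay at 2.20 to 2.24 in all 5 batch A samples and at 7.16 to 7.69 in all 5 batch B samples. It passed the filter on the mean through batch B alone, so no test of its batch difference is given. With values under 4 raised to 4, the batch B controls were at least 3.26 higher. In batch A both groups of dac lay at the lower end of the scale, so no change can be read there. The fit over both batches therefore does not tell whether dac changed. In batch B the controls lay at 7.16 and 7.36 and the JIL-1 RNAi samples at 7.56, 7.67 and 7.69, a change of 0.38. No p is given for it, since the batch A values at the lower end enter its variance. Its probe set is also of a type that can match more than 1 gene. ct, a homeodomain protein, lay at 6.89 to 7.16 in batch A and at 8.91 to 8.98 in batch B, a difference of 2.04 between controls. Of the other tested targets, tsh was 1.03 higher in the batch B controls (adjusted p = 1.29e-05) and pnr 0.20 higher (adjusted p = 0.0255), where 37.7% of all tested were higher.

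The genes whose values followed Sfmbt most closely were sought among all single-named genes tested. After the mean of each batch was taken off, the Pearson correlation over the 10 samples was highest for WRNexo (0.98), Zcchc7 (0.97), Hem (0.97), CG4853 (0.96) and Vang (0.96). The genes on an array share its scaling and the RNAi groups are part of the pattern, so these values are a description only. Their changes after JIL-1 RNAi ran from 0.17 for Hem to 0.44 for Vang. As they were chosen for following Sfmbt in the same samples, these rises are not a separate result.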

How the data were processed

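Total RNA of 10 samples was measured on single-colour Affymetrix arrays. The deposited values are log2 expression values per probe set, which the authors made with GCRMA, per the submitters' processing notes. Neither its version nor a joint or separate run per batch is stated. The range of 2.20 to 15.7 gave the log2 scale. On each array 50.5% to 51.8% of probe sets were no more than 0.01 above the lowest value, so fold changes of dim genes are compressed. The number of arrays limits the precision.

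Gene names came from the platform annotation, in which 13647 probe sets had 1 gene, 402 several, 4720 none, and 183 were array controls, left out. Chromosome arms, current symbols and gene IDs came from the gene table of Drosophila assembly Release 6 (13544 matched). The brightest probe set by mean over the samples stood for a gene, and means above 4 were tested (6721 of 17105). limma 3.58.1 in R 4.3.3 (lmFit, eBayes, two-sided) fitted group and batch, and a second fit of 4 means gave the changes within each batch, their difference, and the differences between batches; that between JIL-1 RNAi samples was added after the data were seen. The fit was tested on simulated data. Samples of the same batch and group differed by an SD of 0.155 to 0.264, so none was a duplicate.

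Named genes were all members, JIL-1, up to 6 other Polycomb genes and 4 targets past the threshold with the smallest p, and the 5 genes most like the member with the smallest p, with Jarid2, phol, escl, Scm, Caf1-55, Trl, corto, grh, jing, ct and dac added after their values were seen. Members and lists were chosen with earlier results of these data known. Alternatives were other batch terms, filters, scalings, variance models, weighted arrays, unmerged probe sets, raised low values, the replicate number as a block, leaving out each sample, other thresholds and, added later, the Act5C covariate. Replicate numbers are shared by the groups, but the deviations of same-numbered samples correlated at -0.30 to 0.24 over genes, so they were not taken as pairs.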

Additional observations from a re-analysis of the deposited data

How the results depend on the processing

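Depth in the sense of signal over background limits the target genes, most of which lie at the lower end of the scale; the 7 Polycomb members lie well above it. The 3 rises among members became 0 with the replicate block, without a batch term, with the Act5C covariate and with a 1.5-fold minimum, and ranged from 1 to 3 when 1 sample was left out (1 without JIL-1 RNAi replicate 2). The replicate numbers do not pair the samples; with the replicate block 1203 genes passed in all, against 2397, and the target calls went from 2 to 0, while the 2 calls among other Polycomb genes did not change in number. Without a batch term 501 genes passed in all and 0 in each other list. Without the filter 1452 of 17105 passed in all and 1 other Polycomb gene. A 1.5-fold minimum left 471 in all and 0 in each list, and an adjusted p under 0.1 gave 4 other Polycomb genes. With the Act5C covariate the 2 target calls became 0. Leaving out 1 sample gave 1761 to 2262 genes in all. Members higher in the batch B controls numbered 5 to 7 when 1 sample was left out and 5 without the filter, with a common median or with quantile normalization; E(z) and Sce account for the losses. The difference of RYBP between controls, 0.072, turned to -0.083 with a common median and -0.24 with quantile normalization, and ran from -0.054 to 0.19 when 1 sample was left out. No member's change after JIL-1 RNAi changed sign under any of the 22 alternatives run for it, and no member passed the test of the difference between batches under any of the 18 run for it. Leaving out a sample of a pair leaves 1 sample in that group and batch, which is then assumed to vary like the others. The cause of these shifts was not tested.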
